A study of Mus musculus with 8 samples.

Results

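The interleukin 15, interleukin 18 receptor and JAK-STAT genes described here are 9 genes, Il15, Il15ra, Il2, Jak3, Stat3, Stat4, Il6ra, Il18r1 and Id2, chosen by name out of 754 genes on the panel. They were measured in cultures of mouse splenic CD8 T cells held for 48 hours in medium that B16F10 cells, a mouse melanoma line, had conditioned for 48 hours. The medium came either from B16F10 cells wild type for SSBP4 (WT medium, 4 samples) or from SSBP4-knockout B16F10 cells (KO medium, 4 samples). The T cells of both groups came from C57BL/6 spleens by negative selection, carried no knockout themselves, and were stimulated with anti-CD3/CD28 antibodies at 2 µg/ml, with LDS, as the labels spell it, in the medium. The age of the mice, any pooling of animals and the number of knockout clones are not stated in the labels, so a difference of clone or medium batch cannot be told apart from the knockout. The labels do not tie the samples to separate mice or cultures, and p-values here reflect sample-to-sample spread alone, part of which could be technical.

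Cytokines of the common gamma chain family, among them IL-2 and IL-15, bind receptors that share 1 signalling subunit, to which the Janus kinase JAK3 is attached, and JAK kinases then phosphorylate STAT transcription factors. IL-15 is usually displayed on its alpha receptor by one cell to a neighbouring T cell, and it is known for keeping memory CD8 T cells and natural killer cells alive. IL-12 acts through STAT4, and together with IL-18 it drives interferon-gamma production in activated T cells. IL-6 acts through its own receptor chain, the shared subunit gp130 and STAT3. ID2 is an inhibitor of E-protein transcription factors that favours effector CD8 T cells.

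RNA was counted with the nCounter Myeloid Innate Immunity panel, in which barcoded probes bound to each transcript are counted without amplification. Levels below are the authors' normalized signals. Counts recovered from them summed to 188174 to 346651 per sample. A signal was taken as background below 22.08 (2 SD over the mean of the negative control probes), and the 454 genes whose mean over all 8 samples reached it were tested. The control counts are unscaled, while gene signals carry a factor of 0.7918 to 1.3284 by sample. The side of the threshold is therefore approximate for signals near it. Of the T cell genes listed for the check of cell identity, 6 were measured (Ptprc, Cd247, Cd27, Fyn, Lat and Cd28). Their summed signal was 715 to 1052 in WT medium and 1543 to 2308 in KO medium, and all 6 rose, although Cd28 and Lat lost their calls with samples 1 and 2, and 3 and 4, of a medium averaged (limma adjusted p = 0.122 and 0.0647). Of 9 measured genes of a mesenchymal stromal list, not usual in CD8 T cells, 8 were tested, of which Pdgfrb rose (log2 fold change 0.67, limma adjusted p = 0.0150) and 7 fell, although Fn1 lost its call without WT medium sample 1 or 2 or KO medium sample 1 or 2 (limma adjusted p = 0.0793, 0.0711, 0.0714 and 0.0758). Their summed signal went from 7520 to 8914 in WT medium to 572.6 to 887.8 in KO medium. The share of these lists in the results below was not tested. Scaling to the T cell genes, given below, lowers every log2 fold change by a similar amount, since these genes rose, so it cannot measure that share. In bulk RNA, fewer cells of a type and less RNA per cell cannot be told apart.

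Among the 9 genes, Jak3, Stat3, Stat4, Il18r1 and Id2 rose in KO medium, Il15 and Il15ra fell, Il6ra was above background in WT medium only, and Il2 lay at background in every sample. The 5 increases and 2 decreases are counted over the 7 members that reached background on average in both media. Over all tested genes 71.6% passed the same test (limma, adjusted p under 0.05), 46.9% as higher and 24.7% as lower. The signals of the groups did not overlap for 6 of these 7 members, against 68.1% of all tested genes. Shares this near to those of the whole panel are no result about the members as a group, and the values of each gene follow.

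**Figure D1:**
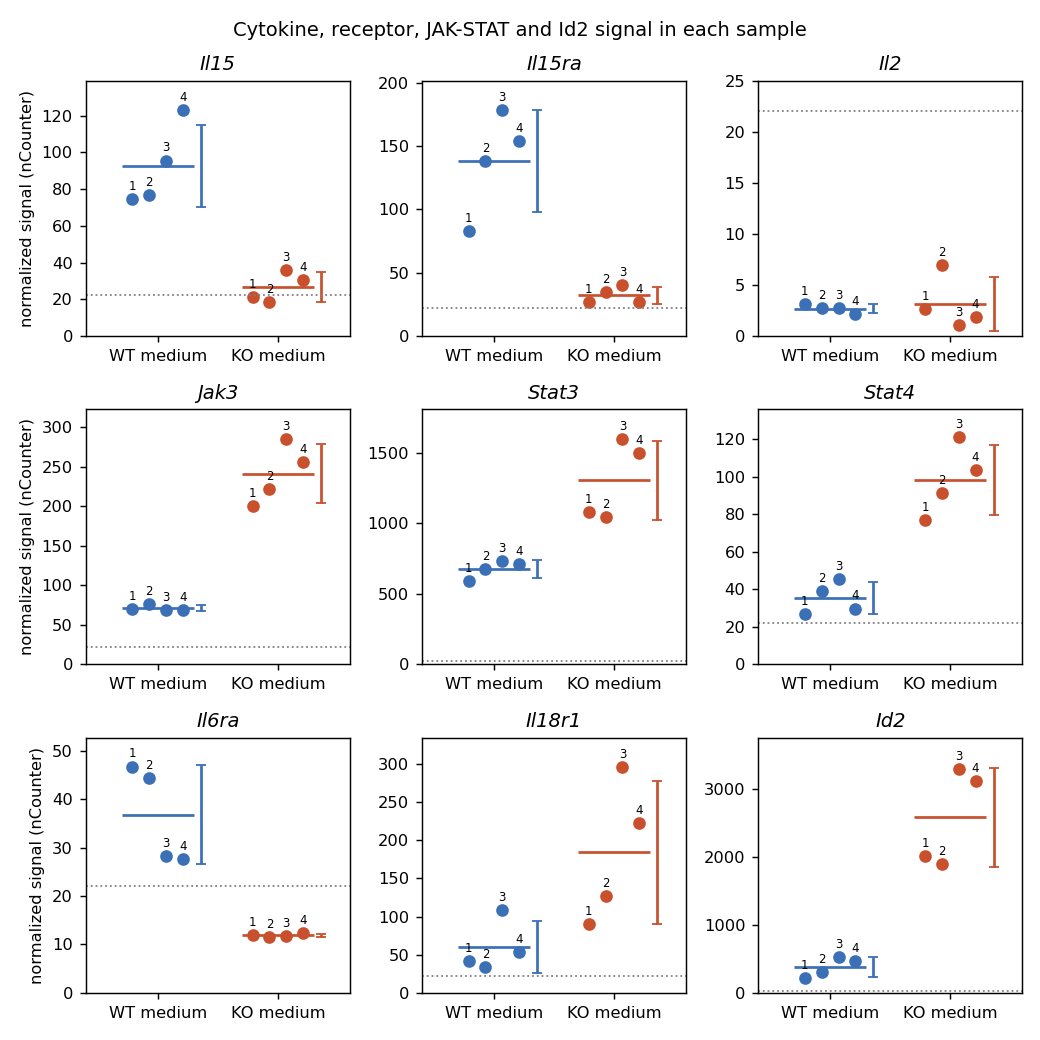
Normalized nCounter signal (vertical axes from 0, a separate scale for each gene) of the 9 genes in 4 WT medium and 4 KO medium samples. Points are samples with their numbers, horizontal bars are means, error bars are SD and the dotted line is the background threshold of 22.08. Il2 stays under the line in all 8 samples, Il6ra falls under it in all 4 KO medium samples, and Il18r1 is the tested gene whose groups overlap.

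Since STATs and interferon regulatory factors bind known motifs, the promoter windows of the members were searched for TTCNNNGAA, the core of the STAT motif, and GAAANNGAAA, the core of the interferon response element, on both strands. The windows span 250 bases before to 50 after each annotated start in RefSeq on build GRCm38.p6. They were found for 8 of the 9 members, as 12 windows, and Il15 was not among them. TTCNNNGAA was in 1 of the 12 windows, of an Il18r1 start, in a pair of copies that begin at -219 and -152 from the start, against 8.30% of all 32851 windows. GAAANNGAAA was in 1 window, of a Stat4 start, beginning at -97, against 3.44% of all windows. These windows are printed because they hold the matches (in capitals), and 1 window of Il15ra, which fell, because it holds neither. Of the Il18r1 start the window is chr1:40465756-40466055, of the Stat4 start chr1:52007990-52008289 and of the Il15ra start chr2:11705043-11705342, all on the plus strand. A match is a description of these letters, and says nothing of binding.
Il18r1: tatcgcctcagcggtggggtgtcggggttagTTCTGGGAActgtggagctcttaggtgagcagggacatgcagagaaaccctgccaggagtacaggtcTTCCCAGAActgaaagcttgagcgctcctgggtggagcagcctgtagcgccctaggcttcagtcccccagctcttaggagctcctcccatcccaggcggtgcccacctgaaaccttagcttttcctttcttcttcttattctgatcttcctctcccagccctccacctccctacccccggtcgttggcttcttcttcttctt
Stat4: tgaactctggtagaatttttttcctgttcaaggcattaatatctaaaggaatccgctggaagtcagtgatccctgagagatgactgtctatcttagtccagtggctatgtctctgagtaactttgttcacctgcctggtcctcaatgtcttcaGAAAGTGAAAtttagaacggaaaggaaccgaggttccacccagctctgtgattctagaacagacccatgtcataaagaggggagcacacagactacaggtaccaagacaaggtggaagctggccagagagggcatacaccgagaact
Il15ra: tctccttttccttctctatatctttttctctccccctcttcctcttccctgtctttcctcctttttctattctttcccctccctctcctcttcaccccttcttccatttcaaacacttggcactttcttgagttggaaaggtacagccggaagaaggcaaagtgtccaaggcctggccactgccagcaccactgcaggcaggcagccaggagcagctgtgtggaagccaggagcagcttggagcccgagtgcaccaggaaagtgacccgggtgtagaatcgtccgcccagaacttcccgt

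Il15, which encodes the cytokine itself, was lower in KO medium. Its signal was 74.4, 76.9, 95.5 and 123.3 in WT medium samples 1 to 4 and 21.3, 18.5, 36.1 and 30.3 in KO medium samples 1 to 4. Every WT medium sample was thus above every KO medium sample, and KO medium samples 1 and 2 lay under the background threshold. The fall was 1.78 on the log2 scale (log2 fold change -1.78, SE 0.26, limma adjusted p = 0.000282). The recovered counts behind these signals ran from 16 to 34 in KO medium, so counting error alone is sizeable there.

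Il15ra, which encodes the alpha receptor that displays IL-15, was lower as well. It stood at 83.1, 138.5, 178.3 and 154.1 in WT medium samples 1 to 4 and at 26.6, 34.7, 40.3 and 26.5 in KO medium samples 1 to 4. The lowest WT medium sample, sample 1, was above the highest KO medium sample, and no sample was under the background threshold. The log2 fold change was -2.05 (SE 0.26, limma adjusted p = 0.000118). The log2 ratio of Il15ra to Il15 signal in the same sample was 0.56 ± 0.37 (SD, n = 4) in WT medium and 0.30 ± 0.46 in KO medium. No factor applied to a whole sample can change it, though quantile normalization, which is no such factor, can. The ratio differed between media by less than its SD in either medium.

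Il2, the growth factor gene of activated T cells, had signals of 3.17, 2.71, 2.73 and 2.13 in WT medium samples 1 to 4. In KO medium samples 1 to 4 it had 2.66, 6.95, 1.06 and 1.90, that is 1 to 6 recovered counts. All 8 samples were under the background threshold, and the gene was not tested. A difference in Il2 was not detectable at this depth. Of the receptor chains shared by IL-2 and IL-15, Il2rb and Il2rg were not analysed here.

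The other tested genes of the common gamma chain family moved the opposite way to Il15 and Il15ra. Of 7 measured genes of the family list 4 were tested, which left, besides Il15 and Il15ra, the IL-4 receptor alpha chain gene Il4ra and the IL-21 receptor gene Il21r. Il4ra rose from 93.03 ± 8.78 to 159.6 ± 31.3 (SD, n = 4 per group, log2 fold change 0.76, SE 0.16, limma adjusted p = 0.00242). Il21r rose from 55.7 ± 8.08 to 112.4 ± 25.6 (log2 fold change 0.99, SE 0.19, limma adjusted p = 0.00134). Scaled to the T cell genes their log2 fold changes turned to -0.51 and -0.27, past the threshold for neither, and Il21r also missed it with quantile normalization (limma adjusted p = 0.0914). Il4 and Il9, 2 cytokine genes of the family, were too low to be tested.

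Jak3, the kinase gene of the common gamma chain, had the smallest SE of these 7 members and rose. Its signal was 70.5, 76.9, 69.1 and 69.1 in WT medium samples 1 to 4 and 200.6, 222.3, 285.3 and 255.9 in KO medium samples 1 to 4. The 4 WT medium samples lay within a narrow band and all KO medium samples stood well above it. The log2 fold change was 1.73 (SE 0.13, limma adjusted p = 4.71e-06).

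Stat3, which carries signals of IL-6 and IL-21, had signals of 591.5, 674.2, 730.6 and 712.0 in WT medium samples 1 to 4. In KO medium samples 1 to 4 it had 1084, 1048, 1595 and 1497. The groups did not overlap, and KO medium samples 3 and 4 were higher than samples 1 and 2. The log2 fold change was 0.93 (SE 0.15, limma adjusted p = 0.000603), the smallest among the 7.

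Stat4, the transcription factor gene of IL-12 signalling, had signals of 26.9, 38.9, 45.5 and 29.8 in WT medium samples 1 to 4, not far over background. In KO medium samples 1 to 4 it reached 77.05, 91.5, 120.9 and 103.3, all above the WT medium samples. The log2 fold change was 1.46 (SE 0.22, limma adjusted p = 0.000313). The log2 ratio of Stat4 to Stat3 signal ran from -4.58 to -4.01 in WT medium and from -3.86 to -3.52 in KO medium. Stat4 was thus higher relative to Stat3 in KO medium, and no factor applied to a whole sample changes this. Quantile normalization is no such factor and can change the ratio. This ratio was not tested, and probes of different genes need not count equally well, so only its shift between media can be read.

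Of 9 genes reported here from the list of Janus kinases, STATs and their inhibitors, all were tested, 6 rose and 0 fell. Of all genes tested 46.9% rose and 24.7% fell. The median log2 fold change was 0.54 against 0.41 over all genes tested. Besides the members, the 3 that rose were Stat6, Stat5a and Stat5b. Stat6, the factor of IL-4 signalling, rose from 302.1 ± 27.6 to 717.5 ± 94.3 (log2 fold change 1.24, SE 0.12, limma adjusted p = 1.75e-05). Stat5a and Stat5b, the factors of IL-2 and IL-15 signalling, rose with log2 fold changes of 0.54 (SE 0.16, limma adjusted p = 0.0133) and 0.41 (SE 0.14, limma adjusted p = 0.0254). Both lost the call with median, quantile and positive control scaling, in samples 1 and 2 alone and with each of the pairs 1 and 2, and 3 and 4, of a medium averaged into 1 value. Stat5b also lost it when WT medium sample 1 or 4, or KO medium sample 3 or 4, was left out (highest limma adjusted p = 0.0713). The 3 that did not pass were inhibitors of cytokine signalling. Socs1 was 373.1 ± 132.2 in WT medium and 367.9 ± 159.8 in KO medium (limma adjusted p = 0.901), Socs2 47.8 ± 8.49 and 69.6 ± 32.5 (0.228), and Socs3 96.04 ± 10.7 and 145.6 ± 50.09 (0.0548). Socs3 passed as higher with the replicate number as a block (limma adjusted p = 0.0162), without KO medium sample 1 (0.0181) and in samples 3 and 4 alone (0.0125). Socs2 did so in samples 3 and 4 alone (0.0276). Scaled to the T cell genes, 0 of the 9 genes were called higher and 5 lower, against 13.4% and 56.8% of all genes tested. The 5 were Socs1 (log2 fold change -1.32, limma adjusted p = 0.000144), Socs2, Socs3, Stat5a and Stat5b.

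Il6ra, the ligand-binding chain of the IL-6 receptor, was above background in WT medium only. In WT medium samples 1 to 4 its signal was 46.7, 44.3, 28.2 and 27.6, and in KO medium samples 1 to 4 it was 12.0, 11.6, 11.7 and 12.3. All 4 KO medium samples were under the background threshold, so the gene reached the filter only through WT medium. Neither its fitted fold change nor its test is therefore read as a result. Its call is still included in the counts of called genes, and the plot of the pathway lists draws its fitted change as an open symbol. Il6ra was at least 1.59-fold lower in KO medium, with KO medium set to the threshold. Of 8 measured genes of the IL-6 and gp130 family 2 were tested, and Lif, a cytokine gene of this family, fell from 195.8 ± 22.5 to 42.7 ± 17.6 (log2 fold change -2.26, SE 0.29, limma adjusted p = 0.000138). Il6 lay at 4.77 ± 3.22 and 4.23 ± 1.27, under background.

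Il18r1, the alpha chain of the IL-18 receptor and the member with the pair of TTCNNNGAA copies printed above, rose with the widest spread of the tested members. Its signal was 42.0, 33.5, 109.2 and 54.2 in WT medium samples 1 to 4 and 90.3, 127.4, 295.9 and 222.7 in KO medium samples 1 to 4. The groups overlapped, since WT medium sample 3 stood above KO medium sample 1. The log2 fold change was 1.61 (SE 0.45, limma adjusted p = 0.0108). It was 1.49 in samples 1 and 2 alone and 1.72 in samples 3 and 4 alone, and the call was lost with these pairs averaged (limma adjusted p = 0.0838). Nkg7 and Klrk1, the genes measured above background from a list of natural killer cell markers, were also highest in samples 3 and 4 of each medium, and that list's summed signal was 116.6 to 536.8 in WT medium and 455.7 to 1039 in KO medium. Tyrobp, the other measured marker of that list, was at most 10.9 in any sample. Nkg7 was called higher and Klrk1 was not called. Any link of these markers to the Il18r1 signal was not tested.

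In the list of the IL-18, IL-12 and IL-1 receptor family, 6 of 15 measured genes were tested. Of these 4 rose and 1 fell, against 46.9% and 24.7% of all genes tested. Il18, the gene of the IL-18 cytokine, rose from 29.4 ± 4.82 to 98.3 ± 66.9 (log2 fold change 1.45, SE 0.46, limma adjusted p = 0.0191). Its call was lost without WT medium sample 2 or KO medium sample 4 (limma adjusted p = 0.0527 and 0.0541) and with the pairs of samples averaged (0.128). Il1rap, the shared co-receptor of IL-1 and IL-33, rose from 72.3 ± 15.2 to 129.5 ± 9.86 (log2 fold change 0.85, SE 0.16, limma adjusted p = 0.00146), a call lost with median and quantile scaling and with the pairs averaged. The adaptor gene Traf6 rose by 0.32 on the log2 scale (SE 0.10, limma adjusted p = 0.0185), a call lost with median, quantile and positive control scaling, in samples 1 and 2 alone and with the pairs averaged. Myd88, the adaptor gene of IL-18 and IL-1 receptors, was 127.3 ± 18.5 in WT medium and 98.0 ± 19.5 in KO medium (limma adjusted p = 0.0793). It passed as lower with the replicate number as a block (limma adjusted p = 0.0493), without KO medium sample 3 (0.0277), in samples 1 and 2 alone (0.0458) and with median (0.00106) and quantile (0.00171) scaling. The gene that fell was Il1rl1, which encodes the IL-33 receptor. Scaled to the T cell genes, 0 of the 6 were called higher and 3 lower, against 13.4% and 56.8% of all genes tested. The 3 were Il1rl1, Myd88 (log2 fold change -1.64, limma adjusted p = 2.69e-05) and Traf6. The IL-12 subunit genes Il12a and Il12b were under background, and the IL-12 receptor genes were not analysed here.

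Id2 had the largest log2 fold change of the 7 members above background in both media. Its signal was 215.4, 309.5, 534.1 and 474.0 in WT medium samples 1 to 4 and 2018, 1888, 3291 and 3111 in KO medium samples 1 to 4. The lowest KO medium sample was above the highest WT medium sample by a wide gap, and in both media samples 3 and 4 were above samples 1 and 2. The log2 fold change was 2.79 (SE 0.31, limma adjusted p = 5.01e-05), a 6.92-fold rise. Of 6 measured genes in the list of Id proteins and related factors 5 were tested. Of these 3 were called higher and 0 lower, against 46.9% and 24.7% of all genes tested. Nfil3, a transcription factor gene linked to Id2 in innate lymphocytes, rose from 630.7 ± 33.8 to 977.2 ± 61.1 (log2 fold change 0.63, SE 0.08, limma adjusted p = 8.84e-05), a call lost with median scaling. Batf, an AP-1 family factor gene of effector T cells, was under background in all WT medium samples and in 2 of 4 KO medium samples. With WT medium set to the threshold, the KO medium mean on the log2 scale was 1.44-fold higher, which is no bound for the 2 KO medium samples under it. Batf reached the filter only through KO medium, so its call, counted among the 3, is not read as a result. Id1, a relative of Id2, was 24.97 ± 4.68 and 27.4 ± 9.55 (limma adjusted p = 0.753), and Gata3, a factor gene of type 2 T cells, was 39.2 ± 6.21 and 41.8 ± 4.84 (0.649). Scaled to the T cell genes, Id2 alone of the 5 was called higher and 3 were called lower, against 13.4% and 56.8% of all genes tested. Id3 was not tested, at 22.3 ± 4.74 and 20.3 ± 4.12.

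**Figure D2:**
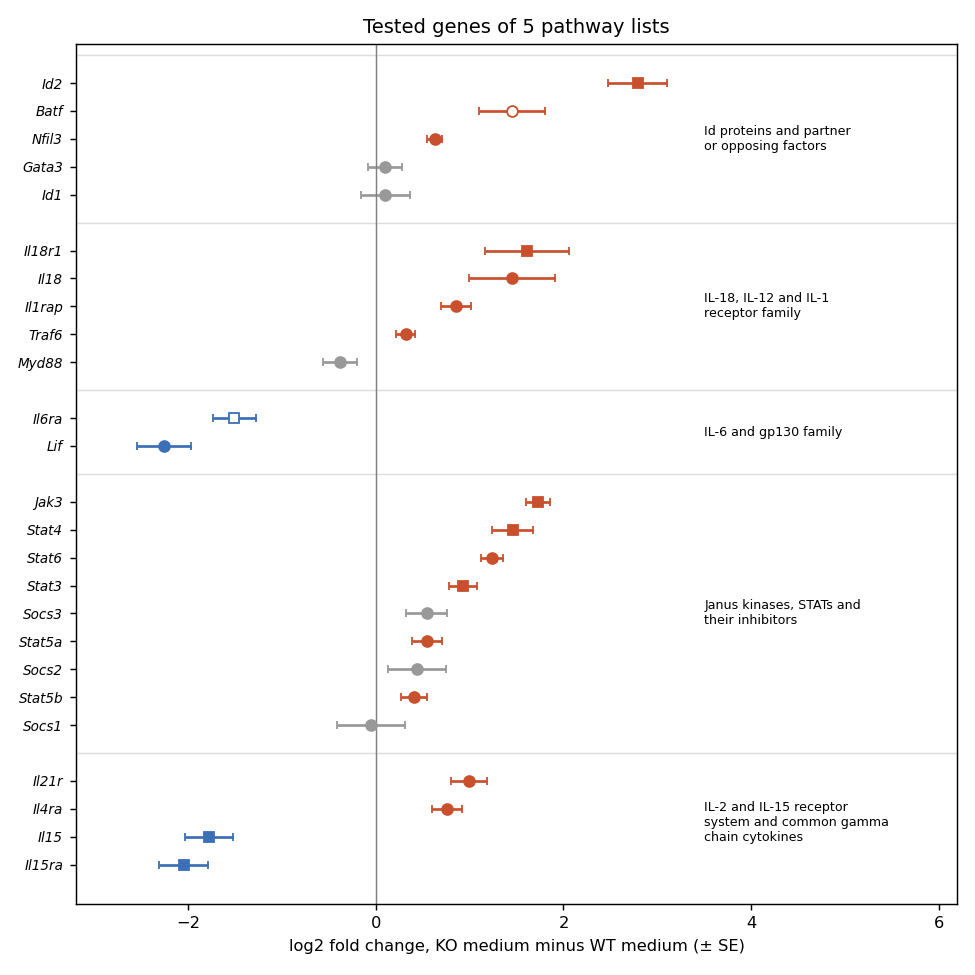
Log2 fold change of KO medium minus WT medium (horizontal axis, bars are SE from limma, n = 4 per group) for the tested genes of 5 pathway lists that are reported here. Squares are the members and circles the other genes, red passed as higher, blue as lower and grey did not pass, and open symbols mark genes under background on average in 1 medium, whose fitted change is no bound. Il1rl1, which fell, lies outside the axis and is not drawn. Id2 is the highest point at 2.79 and Lif the lowest at -2.26.

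The T cell genes rose in the same samples as Jak3, Stat3, Stat4 and Il18r1, and these 4 calls were lost when samples were scaled to them. The geometric mean signal of the 6 T cell genes was 60.2, 72.3, 114.4 and 85.7 in WT medium samples 1 to 4 and 148.2, 182.5, 254.1 and 210.6 in KO medium samples 1 to 4. Scaled to it, the log2 fold change was 0.47 for Jak3 (limma adjusted p = 0.111), 0.21 for Stat4 (0.461), 0.35 for Il18r1 (0.297) and -0.34 for Stat3 (0.182), none past the threshold. Under this scaling the median over all genes tested moved from 0.41 to -0.85, and 13.4% of genes were called higher and 56.8% lower. Scaling to genes that rose lowers every log2 fold change, so a lost call does not measure the share of T cells. Id2 alone of the members stayed higher (log2 fold change 1.52, limma adjusted p = 2.42e-05). Il15 and Il15ra stayed lower, at -3.03 and -3.30 on the log2 scale (limma adjusted p = 1.22e-07 and 1.94e-08). With median, quantile and positive control scaling, which put the median over all genes tested at 0.02, 0.11 and 0.26, the 7 members above background in both media kept their direction and their call, while 33.5%, 36.6% and 38.1% of all tested genes were called higher and 32.6%, 30.0% and 25.3% lower.

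**Figure D3:**
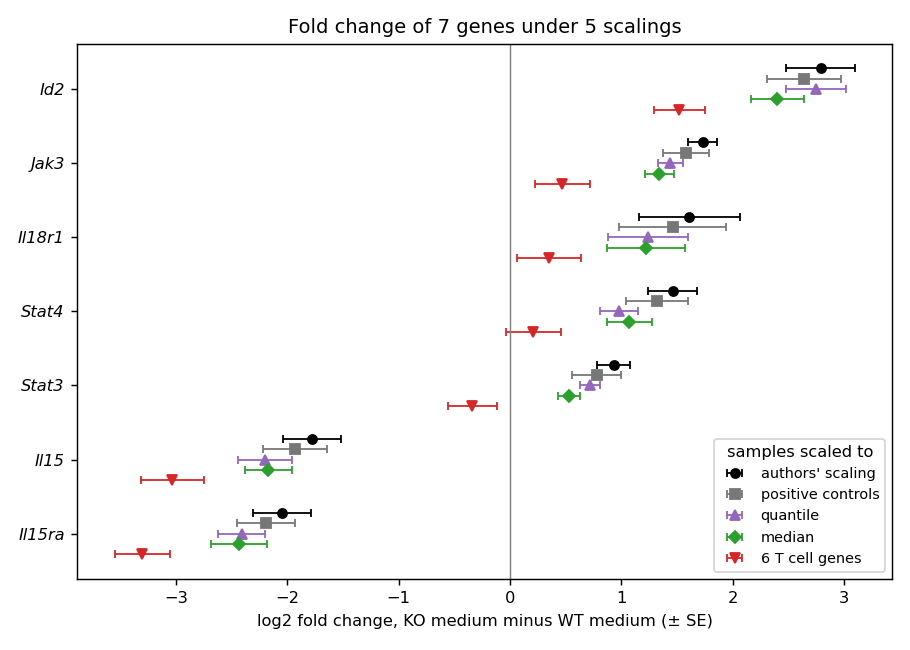
Log2 fold change of KO medium minus WT medium (horizontal axis, bars are SE from limma, n = 4 per group) for the 7 members above background on average in both media when samples were scaled in 5 ways. Scaling to the 6 T cell genes moves Stat3 to -0.34 and Jak3, Il18r1 and Stat4 to between 0.21 and 0.47, while Id2 stays at 1.52 and Il15 and Il15ra lie at -3.03 and -3.30.

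Divided by the T cell genes of its own sample, Id2 went from 4.51 ± 0.82 in WT medium to 12.9 ± 1.87 in KO medium (ratios of signal, SD, n = 4), with no overlap. Jak3 went from 0.911 ± 0.255 to 1.23 ± 0.095 and Stat4 from 0.433 ± 0.081 to 0.497 ± 0.018. WT medium sample 1 overlapped the KO medium samples for Jak3, and WT medium sample 2 did so for Stat4. Il15ra went from 1.66 ± 0.24 to 0.164 ± 0.028. Its fall relative to T cell genes was therefore larger than on the authors' scale. In the same samples 7 mesenchymal stromal genes fell, with Cd34, a sialomucin gene of progenitor and vascular cells, at 4503 to 5069 in WT medium and 2.12 to 6.95 in KO medium, and Fgf7, a growth factor gene of mesenchymal cells, at 807.0 to 914.6 and 6.36 to 9.30. The part of such cells in the lower Il15, Il15ra, Il6ra and Lif signals was not tested.

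**Figure D4:**
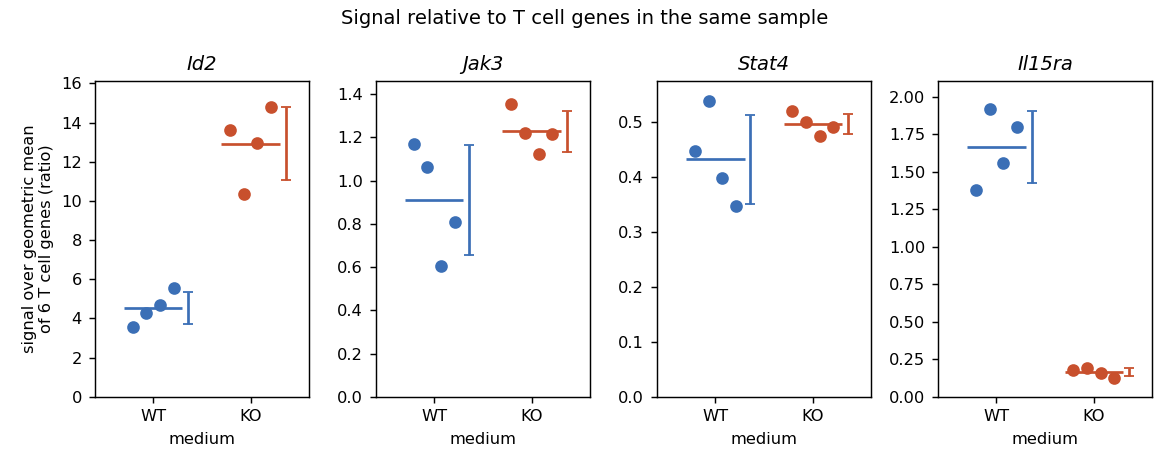
Signal of Id2, Jak3, Stat4 and Il15ra divided by the geometric mean signal of 6 T cell genes in the same sample (ratio, vertical axes from 0, a separate scale for each gene). Points are the 4 samples of each medium, horizontal bars are means and error bars are SD. The media do not overlap for Id2 and Il15ra, and overlap for Jak3 and Stat4.

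Markers of myeloid cells, which can make IL-15, went both ways. Of 11 macrophage or monocyte markers on the panel 4 passed the filter. Among these, 1 (Fcgr4) rose and 1 (Cd68) fell, a call lost without WT medium sample 2, 3 or 4 or KO medium sample 1 or 3 (highest limma adjusted p = 0.103). The summed signal was 303.3 to 477.7 in WT medium and 352.1 to 784.9 in KO medium. Csf1r and Adgre1, defining markers of macrophages, were at most 5.43 and 7.28 in any sample, under background. Of 7 measured dendritic cell markers the 2 tested, H2-Aa and Cd74, rose, with summed signals of 65.9 to 119.4 and 449.0 to 5222, and Flt3, Xcr1 and Clec9a were under background in all samples. The 8 measured neutrophil markers summed to 72.9 to 88.1 and 33.3 to 74.2, and the only one tested, Mmp9, fell, a call lost without WT medium sample 1 or 2 or KO medium sample 4 (highest limma adjusted p = 0.0823). The B cell marker measured, Ms4a1, was 15.4 to 23.0 and 13.3 to 30.8, and none of the 7 listed melanoma markers was analysed here. The part of these cells in the results was not tested.

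Across the tested genes, samples 1 and 2 of one medium deviated from their group mean together with samples 1 and 2 of the other (correlations of 0.267 to 0.454 over genes, which are not independent), and samples 3 and 4 did likewise (0.197 to 0.465). Within samples 1 and 2 the log2 fold changes were 1.51 for Jak3, 0.75 for Stat3, 1.35 for Stat4, 2.91 for Id2, -1.88 for Il15 and -1.79 for Il15ra. Within samples 3 and 4 they were 1.95, 1.10, 1.58, 2.67, -1.68 and -2.31 in the same order. Besides Il15, all kept their direction and passed the test in both pairs (limma, highest adjusted p = 0.00111, for Stat4 in samples 1 and 2). Il15 did so in samples 3 and 4. In samples 1 and 2 its KO medium signals lay under background (mean 19.9), so its fitted change there is no bound and its test is not used.

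The genes whose signal ran most like a member's over the 8 samples were found by the root mean square difference between log2 profiles, each centred on its own mean. Il15 was nearest to Csf1, a macrophage growth factor gene (0.219), and to Ell2 and Casp1 (0.222 and 0.256), and Il15 itself was the third nearest to Il15ra (0.376), after Myc and Eef1g (0.353 and 0.375). Jak3 was nearest to Sptbn1, Ltb and Bcl2 (0.102, 0.108 and 0.122) and Stat3 to Hif1a, Tnfrsf1a and Vasp (0.085, 0.096 and 0.103). The nearest genes to Stat4 were Ctla4, an inhibitory receptor gene of T cells (0.133), and the T cell scaling genes Ptprc and Cd247 (0.152 and 0.165). Il18r1 was nearest to the integrin gene Itgal (0.196), then Selplg and Il10ra (0.282 and 0.293). Id2 was nearest to Dusp2, Met and Crem (0.304, 0.316 and 0.316), and Il6ra, among the genes reported here, to Nfkbia, Tgfbr3 and Alcam (0.202, 0.222 and 0.225). All these profiles share the same samples and the large difference between media, so likeness is a description.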

How the data were processed

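RNA of 8 samples, 4 per medium, was measured on an nCounter panel of 754 genes with 14 control probes. The deposited values are normalized signal. No source used here gives the authors' software or normalization, but in each deposited column the gene signals were whole multiples of 1 factor (tolerance 0.1 of a step) for 99.87% to 100% of values above 1, with factors of 0.7918 to 1.3284, lower values listed as 1 and controls unscaled. Recovered counts leave out values listed at 1. Genes were tested on log2(signal + 1) in R 4.3.3 with limma 3.58.1 (functions lmFit and eBayes, trend on, medium as the only term, two-sided, Benjamini-Hochberg over 454 genes). This scale understates changes of low genes. The procedure was tested on simulated data with independent noise. Those data lack the samples that deviate together here, so the simulation does not give the error rate in these data. The main test did not pair samples, and the sample number entered only as a block in 1 alternative. Deviations from group means correlated at 0.454, 0.296, 0.465 and 0.197 between same numbers. Different numbers within 1 and 2, or within 3 and 4, also correlated across media, at 0.396, 0.267, 0.424 and 0.255. No label explains the numbers, so pairing by number is not established. Members and lists were chosen with earlier results of these data known. Some panel genes are not reported here and were left out of the lists and of the similar profiles, not of the fit. Genes named are the members, fixed partners, up to 3 further genes of each list with the smallest p, the 3 most similar profiles, and leading or defining markers. Fcgr4, Cd68, Csf1r, Adgre1, Flt3, Xcr1, Clec9a and the untested genes of the lists were named after their values were seen. Alternatives were 2 pseudocounts (0.5 and 10), 2 filters, 4 scalings, no trend, the number as a block, pairs of samples alone or averaged, and each sample left out.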

Additional observations from a re-analysis of the deposited data

How the results depend on the processing

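Over 21 alternatives, 142 of 147 values of the 7 members above background in both media kept their direction and their side of the threshold. This count includes Il15 in samples 1 and 2 alone, whose test is not used above. Scaling to T cell genes left 1 of these 7 members called higher and 2 lower (4 called with Il6ra, which is under background in KO medium). It ended the calls of Jak3 (0.47), Stat4 (0.21) and Il18r1 (0.35) and turned Stat3 to -0.34, all on the log2 scale. Averaging the pairs of samples ended that of Il18r1. None of the 7 lost its call with any 1 sample left out (highest limma adjusted p = 0.0329), or with the replicate number as a block, which called 342 of all tested genes in place of 325 (227 higher and 115 lower) and changed, among the listed genes, only the calls of Socs3 and Myd88. Over the 5 pathway lists, 20 of 26 tested genes were called, 15 higher and 5 lower, and 13 with the pairs averaged. Of all 454 genes tested 325 were called, and 224 with the pairs averaged. Scaled to T cell genes the lists gave 1 higher and 15 lower, against 13.4% and 56.8% of all genes tested. These counts include Il6ra and Batf, which reached the filter through 1 medium only, and are no result about the lists. With this scaling the log2 fold change turned to -0.51 for Il4ra, -0.27 for Il21r, -0.72 for Stat5a, -0.85 for Stat5b, -0.03 for Stat6, -0.81 for Socs2, -0.72 for Socs3, -0.41 for Il1rap, -0.95 for Traf6, -1.13 for Id1, -1.15 for Gata3 and -0.64 for Nfil3. It was -0.07 for Traf6, -0.28 for Id1 and -0.29 for Gata3 with median scaling, -0.10 for Socs2, -0.24 for Id1 and -0.41 for Gata3 with quantile normalization, and -0.05 for Id1 and for Gata3 with positive controls. It was 0.03 for Socs1 in samples 3 and 4 alone and -0.01 for Gata3 in samples 1 and 2 alone. With 1 sample left out it ran from -0.29 to 0.18 for Socs1 and from -0.12 to 0.19 for Id1. The split of all called genes went from 213 higher and 112 lower to 152 and 148 (median), 166 and 136 (quantile) and 61 and 258 (T cell genes). The cause of these changes was not tested. edgeR and DESeq2 were not run, since signals listed at a floor of 1 are not whole counts in every column. Depth limits Il2 (1 to 6 counts), Il6ra in KO medium (9 to 13) and Il15 in KO medium (16 to 34).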

Other observations

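Of the genes set aside for low signal, Il27ra, the receptor gene for IL-27, and Osm, which encodes oncostatin M of the IL-6 family, lay under background in WT medium and mostly above it in KO medium. Il27ra was 7.92, 11.8, 9.10 and 12.8 in WT medium samples 1 to 4 and 23.9, 26.6, 30.8 and 24.6 in KO medium samples 1 to 4. Osm was 11.9, 10.9, 10.01 and 8.50 against 27.9, 13.9, 42.4 and 36.0, with KO medium sample 2 still under the threshold. Neither was tested in the main fit, as their means over all samples missed the filter, and both were chosen after their values were seen. With no filter, or with background reached in at least 1 group, the IL-6 and gp130 list had 2 genes called higher and 2 lower. In the main fit it had 0 and 2, so this count depends on the filter. Il27ra and Osm reached background through KO medium only and Il6ra through WT medium only, so the count and its directions are not read as a result.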
